A study of Mus musculus with 30 samples.

Results

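The genes described here are the mouse orthologs of 37 genes linked to autism spectrum disorder in human genetics. A gene entered the set where both array tables held a probe set whose only gene symbol was that of the gene, and the probe set with the highest mean signal stood for it. This left 34 of the 37, out of 16553 genes measured in both tables. The rule reads names and mean signals and no difference between groups, but the genes were listed with earlier results of these data known. They comprise 14 chromatin and histone genes, 6 transcription factors and Mediator subunits, 6 genes of synapses, ion channels and cell adhesion, and 8 genes of signalling, ubiquitin transfer and other functions. Adnp, Ash1l and Shank2 did not meet the rule and are not analysed here.

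The RNA came from mice on a CD1 background, bred by crossing Tbr1 heterozygotes, that were either homozygous null for Tbr1 (KO) or wild type (WT). In embryos at E14.5 the neocortex was measured on 3 KO and 3 WT arrays. In newborns at P0.5 each of 3 brain regions (frontal, parietal, occipital) had 4 KO and 4 WT arrays. Signals are log2 values as deposited, and a gene was called where the p of limma's test, adjusted by Benjamini-Hochberg across every gene in a comparison, was under 0.05. The labels name neither sex nor litter, and do not say whether same-numbered arrays came from 1 animal, so the p-values measure the spread between these arrays. The tissue is bulk, and fewer cells of a type cannot be told apart from less RNA per cell.

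Autism risk genes fall mainly into regulators of chromatin and transcription, many of them highly expressed in the fetal cortex, and proteins that build axons, synapses and their ion channels. Tbr1 encodes a T-box transcription factor of early-born glutamatergic neurons of the preplate, subplate and deepest cortical layer, where it is needed for corticothalamic identity. TBR1 is itself an autism risk gene, and other risk genes have been described among its targets in the developing cortex.

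Tbr1 was lower in KO tissue of every P0.5 region. Its signal was 9.90, 9.63, 9.48 and 9.90 in the frontal KO arrays and 10.36, 10.21, 10.60 and 10.24 in the frontal WT arrays, with no overlap, and it fell by 0.63 (SE 0.12, adjusted p = 0.00189, limma). The fall was 0.58 (SE 0.12, adjusted p = 0.00887) in parietal and 0.84 (SE 0.12, adjusted p = 0.000293) in occipital tissue. At E14.5 the KO arrays read 8.69, 7.23 and 7.57 and the WT arrays 9.36, 8.89 and 9.11, a log2 difference of -1.29 (SE 0.37, adjusted p = 0.85, limma) without overlap that did not pass the test. The sources used here do not say whether these probe sets lie in the deleted part of the gene. KO replicate 1 at E14.5 stood apart, with a median correlation of 0.9555 with the other arrays against 0.9765 to 0.9884 for the other 5, and at P0.5 WT frontal replicate 4 did so (0.9786 against at least 0.9874). The mean signal of 3 Y-linked genes ran from 5.09 to 5.99 in the frontal KO arrays and from 8.99 to 9.15 in the frontal WT arrays, so in frontal tissue this level and the genotype cannot be told apart. It overlapped between the genotypes in parietal tissue (5.36 to 9.11 in KO, 5.76 to 9.25 in WT) and in occipital tissue (5.88 to 9.32 and 9.20 to 9.44). The cortical neuron markers Neurod6, Neurod2, Emx1, Bcl11b and Tubb3 had mean signals of 9.09 or more in every array.

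At P0.5 most of the risk genes differed little between KO and WT, and those that passed the test lay outside the chromatin genes. Averaged over the 3 regions (4 KO against 4 WT values, each the mean of the same-numbered arrays of a genotype), 4 of 34 were called: Med13, Ctnnb1 and Ank3 fell and Dscam rose. That is 11.8%, against 7.46% of all 19938 genes called in this comparison (4.71% higher and 2.75% lower). The replicate values of 5 of 34 (14.7%) did not overlap between the genotypes, against 12.5% of all genes. The median log2 difference was -0.01 for the 34 genes and -0.01 for all genes, and 15 of the 34 lay above 0. In every one of the 34 the 95% interval of the difference lay within 0.5 log2 units of 0, with a median half-width of 0.10. With the mean Y-linked signal as a covariate 0 of 34 members, and 71 genes in place of 1488, passed the test. The SEs of the 4 called genes were 0.045 to 0.055 without this covariate and 0.10 to 0.13 with it. With it Med13 (-0.37) and Ank3 (-0.26) lay farther from 0, and Ctnnb1 (-0.09) and Dscam (0.16) nearer. All 4 calls were thus lost under wider intervals, and for Ctnnb1 and Dscam also under smaller differences. The intervals given above hold without the covariate. The means over regions include the frontal arrays, where the Y-linked level and the genotype cannot be told apart. Over the regions the 2 are therefore poorly separated as well.

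**Figure D1:**
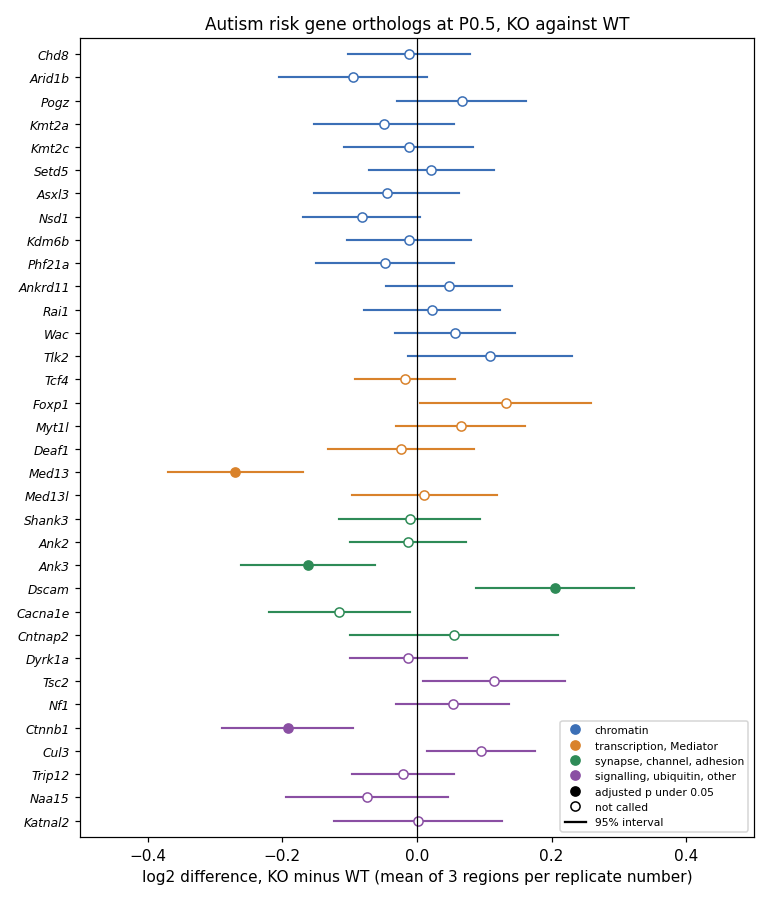
Log2 difference between KO and WT at P0.5 for the 34 genes, averaged over the 3 regions, with 95% intervals (horizontal lines), coloured by role; filled points passed the test at an adjusted p under 0.05 (limma). Med13, Ctnnb1 and Ank3 lie below 0 and Dscam above it, and the 14 chromatin genes stay between -0.10 and 0.11.

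None of the 14 chromatin and histone genes was called between KO and WT in any region, at E14.5 or over the regions, nor between frontal and occipital tissue in either genotype. The share of all genes called was 7.46% over the regions, 7.52% in frontal, 1.81% in parietal and 1.34% in occipital tissue and 0% at E14.5, so a count of 0 of 14 lies near the background. The group holds Chd8, a chromatin remodeller of the CHD family; Arid1b, a subunit of the BAF remodelling complex; Pogz, a zinc finger protein bound to heterochromatin proteins; the histone methyltransferases Kmt2a, Kmt2c and Nsd1; the histone demethylase Kdm6b; Setd5, Asxl3, Phf21a, Ankrd11, Rai1 and Wac, which act with histone-modifying or transcriptional complexes; and the chromatin-linked kinase Tlk2. Over the regions their median log2 difference was -0.01, with a range from -0.10 for Arid1b to 0.11 for Tlk2, 8 below and 6 above 0. No member of the group reached an unadjusted p under 0.05 in that comparison.

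Chd8 illustrates the group at P0.5. Its signal was 10.14, 9.94, 10.11 and 10.06 in frontal KO and 10.07, 10.05, 10.12 and 9.95 in frontal WT arrays. In parietal tissue it was 10.06, 10.18, 10.14 and 10.18 in KO and 10.13, 10.19, 10.12 and 10.12 in WT, and in occipital tissue 10.17, 10.15, 10.13 and 9.99 in KO and 10.12, 10.26, 10.20 and 10.05 in WT. The genotypes overlapped in every region. The difference over the regions was -0.01, with a 95% interval from -0.10 to 0.08.

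The widest differences among the chromatin genes at P0.5 were Tlk2 in frontal tissue, at 0.27 (SE 0.12, adjusted p = 0.151, limma), and Phf21a between frontal and occipital WT tissue, at -0.25 (SE 0.082, adjusted p = 0.0711). Tlk2 read 9.46, 9.18, 9.31 and 9.45 in frontal KO and 9.16, 9.08, 9.12 and 8.96 in frontal WT arrays, without overlap, and overlapped in the other 2 regions. The largest differences of the others among the P0.5 comparisons, from KO against WT or frontal against occipital, were 0.16 or smaller: -0.11 for Chd8, -0.16 for Arid1b, -0.15 for Pogz, -0.13 for Kmt2a, -0.09 for Kmt2c, -0.08 for Setd5, -0.14 for Asxl3, -0.13 for Nsd1, -0.11 for Kdm6b, 0.07 for Ankrd11, 0.07 for Rai1 and 0.13 for Wac.

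Among a wider list of 34 measured chromatin genes, Med12l was the 1 called over the regions (2.94%, against 7.46% of all genes), and it rose. Med12l, a paralog of a subunit of the Mediator kinase module, differed by 0.35 (SE 0.052, adjusted p = 0.000596, limma). In frontal tissue Med12l (0.42) and Kdm5c (0.33, adjusted p = 0.0494), an X-linked histone demethylase, read higher in KO. The Y-linked level there (5.09 to 5.99 in KO, 8.99 to 9.15 in WT) cannot be told apart from the genotype. The Kdm5c difference can therefore be assigned to neither. In parietal tissue Med12l (0.39) rose, and in occipital tissue Smarca2 (-0.30, adjusted p = 0.0148), a BAF ATPase, fell. The calls in frontal, parietal and occipital tissue are 5.88%, 2.94% and 2.94% of the list, beside 7.52%, 1.81% and 1.34% of all genes. The list's median over the regions was -0.03, beside -0.01 for all genes, with 24 of 34 below 0.

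Of the 6 transcription factors and Mediator subunits, Med13 fell. Med13 is the subunit through which the kinase module docks onto Mediator, the complex that links transcription factors to RNA polymerase. Over the regions it read 11, 11.07, 11.07 and 11.03 in KO and 11.24, 11.36, 11.42 and 11.23 in WT, so every KO value lay under every WT value. The log2 difference was -0.27 (SE 0.047, adjusted p = 0.00207, limma), a 1.21-fold lower signal.

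In frontal tissue, where 3 of 34 members (8.82%) were called against 7.52% of all genes (4.7% higher and 2.81% lower), Med13 read 11, 10.88, 11.01 and 10.91 in KO and 11.11, 11.24, 11.45 and 11.22 in WT. It fell by 0.30 there (SE 0.071, adjusted p = 0.00817), and the genotypes did not overlap. Med13 was 1 of 4 members (11.8%) without overlap in frontal tissue, against 12.9% of all genes. Parietal values were 11.01, 11.13, 11.20 and 11.12 in KO and 11.33, 11.39, 11.46 and 11.27 in WT, a difference of -0.25 (SE 0.071, adjusted p = 0.0756) that missed the threshold although the groups did not overlap. Occipital values were 10.98, 11.21, 10.98 and 11.05 in KO and 11.27, 11.45, 11.34 and 11.20 in WT, a difference of -0.26 (SE 0.071, adjusted p = 0.0756), with 1 KO array reaching into the WT range. The difference had the same sign in the 3 regions. With the Y-linked mean as a covariate the difference was -0.37 over the regions (adjusted p = 0.256) and -0.30 in frontal tissue (adjusted p = 0.183). Leaving out any 1 of the 8 replicates left both calls in place.

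The proximal promoters of Med13, Ctnnb1 and Dscam, called over the regions and listed in the RefSeq promoter table (GRCm38.p6), are shown to set the start regions of called genes beside the T-box element. Each is the 250 bases before a start site, read 5′ to 3′ on the gene's strand, with capitals marking GGTGT, the core shared by T-box elements, searched on both strands. The Med13 window lies at chr11:86357597-86357846 on the minus strand, the Ctnnb1 window at chr9:120933150-120933399 on the plus strand and the Dscam window at chr16:97170736-97170985 on the minus strand.
Med13: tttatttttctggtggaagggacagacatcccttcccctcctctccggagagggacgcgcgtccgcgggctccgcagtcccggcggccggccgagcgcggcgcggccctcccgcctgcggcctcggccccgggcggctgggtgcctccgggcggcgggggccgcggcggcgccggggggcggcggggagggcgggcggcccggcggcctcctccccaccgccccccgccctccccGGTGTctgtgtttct
Ctnnb1: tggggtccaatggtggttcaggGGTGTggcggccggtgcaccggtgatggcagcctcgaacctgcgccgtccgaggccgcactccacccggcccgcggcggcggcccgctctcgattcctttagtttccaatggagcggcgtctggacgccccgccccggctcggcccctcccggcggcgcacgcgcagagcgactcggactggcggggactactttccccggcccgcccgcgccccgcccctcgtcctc
Dscam: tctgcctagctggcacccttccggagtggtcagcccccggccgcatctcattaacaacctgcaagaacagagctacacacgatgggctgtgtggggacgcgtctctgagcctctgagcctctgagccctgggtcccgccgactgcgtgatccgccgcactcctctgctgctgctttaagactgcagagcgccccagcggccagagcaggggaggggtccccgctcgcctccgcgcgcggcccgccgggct
GGTGT stood once in the Med13 and Ctnnb1 windows and in the Dscam window not at all. It was found in 36.2% of all 32851 RefSeq windows of this length and in 20 of 43 windows of the 27 members that the table lists. The longer GGTGTGA, which includes GGTGT and was also searched on both strands, was in 3.33% of all windows and in 3 of the 43, those of Naa15, Ank2 and Dyrk1a. These 30-base stretches lie at chr3:51415954-51415983 (plus strand), chr3:127499223-127499252 (minus strand) and chr16:94569976-94570005 (plus strand), with the longer element in capitals.
Naa15: gcgcgttgggaGGTGTGAcccgggtgggaa
Ank2: ggcgtgtagcgGGTGTGAgagtgaatggga
Dyrk1a: cgggcgggaccGGTGTGAgtgtgagggagc
None of those 3 genes was called in any comparison. A match is a description of letters and not of a bound site.

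The other transcription factors were not called between the genotypes at P0.5. Foxp1, a forkhead factor of cortical projection and striatal neurons, differed most in parietal tissue. There it read 10.24, 10.40, 10.26 and 10.30 in KO and 10.13, 10.01, 10.01 and 10.02 in WT, without overlap, a difference of 0.26 (SE 0.090, adjusted p = 0.219, limma). Its difference was 0.18 in frontal tissue and -0.04 in occipital tissue, with overlapping groups in both. Over the regions Tcf4, a basic helix-loop-helix factor, differed by -0.02, Myt1l, a neuronal zinc finger factor, by 0.06, Deaf1, a DNA-binding factor, by -0.02 and Med13l, the paralog of Med13, by 0.01. The 95% interval of Med13l ran from -0.10 to 0.12, and that of Med13 from -0.37 to -0.17.

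Of the 6 synapse, channel and adhesion genes, 1 fell and 1 rose over the regions. Ank3 encodes ankyrin-G, which anchors sodium channels at the axon initial segment, and Dscam a homophilic adhesion molecule of the immunoglobulin superfamily that guides the spacing of neurites. Ank3 read 10.72, 10.74, 10.71 and 10.72 in KO and 10.89, 10.96, 10.93 and 10.75 in WT, and fell by 0.16 (SE 0.046, adjusted p = 0.0486, limma). The groups did not overlap, with WT replicate 4 just above the KO values.

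Dscam over the regions read 9.40, 9.44, 9.42 and 9.35 in KO and 9.22, 9.24, 9.29 and 9.04 in WT, and rose by 0.21 (SE 0.055, adjusted p = 0.0335, limma). All 4 KO values lay above all 4 WT values. Both calls lay close to the threshold. The adjusted p of Ank3 was over 0.05 in 7 of 8 fits that left out a replicate (highest 0.133) and that of Dscam in 5 of 8 (highest 0.0964). Ank3 also lost the call with array medians subtracted (adjusted p = 0.0952), with no intensity trend (0.0825) and with the replicate number as a block (0.0698).

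In frontal tissue Ank3 read 10.69, 10.61, 10.66 and 10.64 in KO and 10.83, 11, 11 and 10.69 in WT, and fell by 0.23 (SE 0.068, adjusted p = 0.0391). The highest KO and the lowest WT array met at 10.69. Dscam read 9.61, 9.52, 9.61 and 9.53 in frontal KO and 9.12, 9.32, 9.48 and 9.05 in frontal WT arrays, and rose by 0.32 (SE 0.093, adjusted p = 0.0317) without overlap. Without WT frontal replicate 4, the array that stood apart, Dscam was at 0.26 (adjusted p = 0.144) and Ank3 kept its call. In fits that left out a replicate, Ank3 lost the frontal call in 6 of 8 and Dscam in 5 of 8. Ank3 also lost it with array medians subtracted (adjusted p = 0.0894), with no intensity trend (0.0563) and with only the frontal arrays fitted (0.123), and Dscam with only those arrays (0.0842). Neither was called in parietal tissue (Ank3 -0.10, Dscam 0.22) or occipital tissue (Ank3 -0.16, Dscam 0.08). With the Y-linked covariate neither passed in frontal tissue (adjusted p 0.223 for Ank3 and 0.211 for Dscam).

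Shank3, a scaffold of excitatory synapses, differed by -0.01 over the regions, with a 95% interval from -0.12 to 0.09. Its signal was 8.54, 8.54, 8.52 and 8.54 in frontal KO and 8.62, 8.76, 8.72 and 8.33 in frontal WT arrays, a narrow KO group inside the WT range. Ank2, which encodes ankyrin-B, differed by -0.01, the calcium channel subunit gene Cacna1e by -0.12 and Cntnap2, a neurexin-like adhesion gene, by 0.06 over the regions, none of them called.

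In a wider list of 30 measured synapse and channel genes, 4 rose and 1 fell over the regions (16.7%, against 7.46% of all genes, 4.71% higher and 2.75% lower). Cacna2d3, an auxiliary calcium channel subunit, rose by 0.51 (SE 0.069, adjusted p = 0.000256, limma), the ankyrin gene Ank1 by 0.23 (adjusted p = 0.0123), the postsynaptic scaffold gene Dlg4 by 0.19 (adjusted p = 0.0308) and the presynaptic adhesion gene Nrxn3 by 0.18 (adjusted p = 0.0331). Cacna1d, an L-type calcium channel gene, fell by 0.20 (adjusted p = 0.0437). The median of the list was 0.03. Cell type markers moved in the same comparison: 6 of 8 neuronal maturation markers, 5 of 8 radial glia, 4 of 6 astrocyte and 3 of 6 microglia markers rose in KO over the regions, and none of these fell. Of the 4 striatum markers Drd2 (0.21) and Penk (0.46) rose and Drd1 (-0.91) and Ppp1r1b (-0.39) fell. All 5 blood vessel markers were below 0, with Kdr called (-0.66), and all 6 cell division markers were below 0, with none called. The mean signal of the 8 maturation markers in frontal tissue ran from 10.44 to 10.52 in KO and from 9.62 to 10.03 in WT. Their part in the results for the risk genes, and that of the Y-linked level outside frontal tissue, was not tested beyond these values.

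Of the 8 genes of signalling and ubiquitin transfer, Ctnnb1 fell. Ctnnb1 encodes beta-catenin, the transducer of canonical Wnt signalling and a partner of cadherins at adherens junctions. Over the regions it read 11.59, 11.40, 11.49 and 11.51 in KO and 11.76, 11.71, 11.67 and 11.63 in WT, without overlap, and fell by 0.19 (SE 0.045, adjusted p = 0.0176, limma). Without WT replicate 1 the difference was -0.17 (adjusted p = 0.0545).

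Parietal tissue, where Ctnnb1 was the 1 member called of 34 (2.94%, against 1.81% of all genes, 1.06% higher and 0.747% lower), gave 11.49, 11.38, 11.42 and 11.52 in KO and 11.65, 11.75, 11.82 and 11.72 in WT. The fall there was 0.28 (SE 0.072, adjusted p = 0.0361), with no overlap. Ctnnb1 was 1 of 3 parietal members (8.82%) without overlap, against 7.41% of all genes. It lost the call in 7 of 8 fits that left out a replicate, with adjusted p up to 0.146. Frontal arrays read 11.56, 11.39, 11.52 and 11.55 in KO and 11.90, 11.67, 11.52 and 11.57 in WT, and occipital arrays 11.72, 11.42, 11.54 and 11.47 in KO and 11.73, 11.70, 11.66 and 11.60 in WT. Both differences (-0.16 and -0.13) were not called, and the groups overlapped. With the Y-linked covariate Ctnnb1 stood at -0.09 over the regions (adjusted p = 1) and at -0.28 in parietal tissue (adjusted p = 0.068).

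Cul3, the scaffold of a family of ubiquitin ligases, read 11.34, 11.37, 11.35 and 11.36 in KO and 11.23, 11.33, 11.26 and 11.23 in WT over the regions. The groups did not overlap, yet the difference of 0.09 (SE 0.037, adjusted p = 0.17, limma) was not called. Over the regions the kinase gene Dyrk1a differed by -0.01, the mTOR regulator Tsc2 by 0.11, the Ras regulator Nf1 by 0.05, the ubiquitin ligase gene Trip12 by -0.02, Naa15, which encodes the ribosome-binding subunit of an N-terminal acetyltransferase, by -0.07 and the katanin-like gene Katnal2 by 0.002. None of these was called in any comparison. Katnal2 had a low mean signal of 6.915 at P0.5, at percentile 33.2 of all genes, where a difference is harder to see. In occipital tissue 0 of 34 members passed, against 1.34% of all genes (0.762% higher and 0.577% lower), 2 had an unadjusted p under 0.05, and the replicate values of Naa15 alone (2.94%, against 6.26% of all genes) did not overlap.

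**Figure D2:**
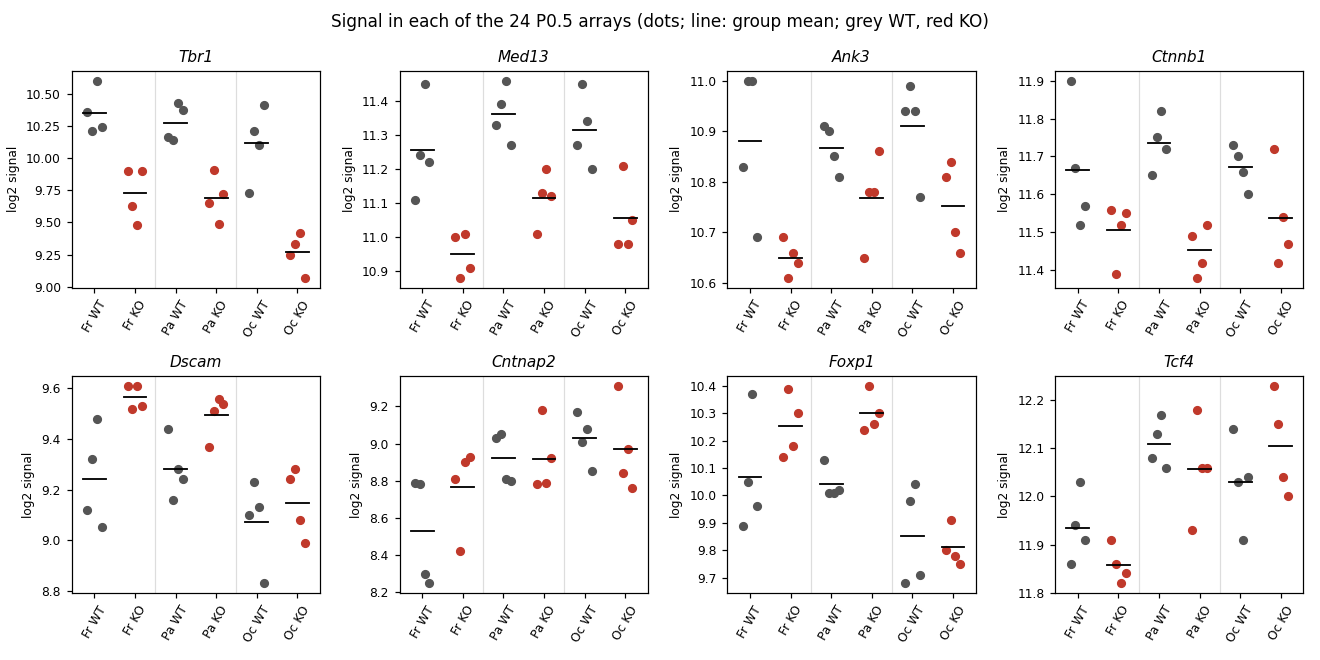
Log2 signal of Tbr1 and the 7 called risk genes in each of the 24 P0.5 arrays (dots), by region (Fr frontal, Pa parietal, Oc occipital) and genotype (grey WT, red KO), with the group mean as a line; each panel has its own scale. Med13 KO arrays sit under the WT arrays in frontal and parietal tissue, and the means of Dscam and Foxp1 are lowest in occipital tissue of both genotypes.

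Regional differences gave a further view of the same genes. In WT tissue 1 of 34 members (2.94%) was called between frontal and occipital tissue, against 6.03% of all genes (2.26% higher and 3.77% lower). Cntnap2 read 8.79, 8.78, 8.30 and 8.25 in frontal and 9.17, 9.01, 9.08 and 8.85 in occipital WT arrays, with every frontal array under every occipital one, and was 0.50 lower in frontal tissue (log2 difference -0.50, SE 0.14, adjusted p = 0.0301, limma). The frontal arrays fell into a higher and a lower pair. Without WT frontal replicate 4 the difference was -0.40 (adjusted p = 0.132), and it lost the call in 5 of 8 fits that left out a replicate. Of the 34, 4 (11.8%) did not overlap between the regions in WT, against 12.6% of all genes. In KO tissue Cntnap2 read 8.81, 8.42, 8.90 and 8.93 in frontal and 9.31, 8.84, 8.97 and 8.76 in occipital arrays, a difference of -0.21 (SE 0.14, adjusted p = 0.543) with overlap.

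In KO tissue 3 of 34 members (8.82%) were called, against 3.22% of all genes (1.47% higher and 1.76% lower): Foxp1 and Dscam were higher in frontal tissue and Tcf4 was lower. The Y-linked level also differed between these groups, at 5.09 to 5.99 in frontal and 5.88 to 9.32 (mean 8.35) in occipital KO arrays. In KO tissue the region is therefore poorly separated from this level. Foxp1 read 10.14, 10.39, 10.18 and 10.30 in frontal and 9.80, 9.91, 9.78 and 9.75 in occipital KO arrays, a difference of 0.44 (SE 0.090, adjusted p = 0.00433, limma) and 1.36-fold. In WT it read 9.89, 10.05, 10.37 and 9.96 in frontal and 9.68, 9.98, 10.04 and 9.71 in occipital arrays, a difference of 0.21 (adjusted p = 0.135) with overlap.

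Dscam read 9.24, 9.28, 9.08 and 8.99 in occipital KO arrays, all under the frontal KO arrays given above, a difference of 0.42 (SE 0.093, adjusted p = 0.00826, limma). Its occipital WT arrays read 9.10, 9.23, 9.13 and 8.83, and the WT difference was 0.17 (adjusted p = 0.233). The frontal KO arrays of Dscam enter both this comparison and that of KO against WT in frontal tissue.

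Tcf4 read 11.91, 11.86, 11.82 and 11.84 in frontal and 12.23, 12.15, 12.04 and 12.00 in occipital KO arrays, and was lower in frontal tissue by a log2 difference of -0.25 (SE 0.060, adjusted p = 0.0146, limma). In WT the arrays read 11.86, 11.94, 12.03 and 11.91 in frontal and 12.14, 12.03, 11.91 and 12.04 in occipital tissue, a difference of -0.10 (adjusted p = 0.286). The KO groups did not overlap and the WT groups did. Tcf4 lost its call without KO occipital replicate 1 (-0.21, adjusted p = 0.0686) and with array medians subtracted (-0.22, adjusted p = 0.0524). With the Y-linked covariate Foxp1, Dscam and Tcf4 had adjusted p of 0.0616, 0.053 and 0.0667, with differences of 0.43, 0.46 and -0.28.

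The test of whether the frontal minus occipital difference itself differed between KO and WT called 0 of 34 members, against 0.416% of all genes (0.236% higher and 0.181% lower), and 0 had an unadjusted p under 0.05 (limma). Its estimate for Foxp1 was 0.23, with a 95% interval from -0.04 to 0.49, for Dscam 0.25 (-0.02 to 0.52), for Tcf4 -0.15 (-0.33 to 0.02) and for Cntnap2 0.29 (-0.10 to 0.68). Calls in 1 genotype alone are therefore not shown to be particular to it. Of the 34, 6 (17.6%) did not overlap between frontal and occipital KO tissue, against 10.1% of all genes.

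As a group the members lay slightly lower in frontal than in occipital tissue in both genotypes. In WT 25 of 34 differences (73.5%) were below 0, beside 45.3% of all genes, with a median of -0.08 beside 0.03. In KO 25 of 34 (73.5%) were, beside 57% of all genes, with a median of -0.05 beside -0.02. The members share the same arrays, so their signs are not independent of each other. WT frontal replicate 4, the array that stood apart, is among them, and these counts were not taken without it. It gave the lowest frontal WT value of Chd8, Shank3, Ank3, Dscam and Cntnap2, but not of Tcf4, Foxp1, Med13 and Ctnnb1. Genes with annotated spans under 10 kb, among them no member, had a WT median of 0.09 and 31.6% below 0. The WT classes from 30 kb up had medians of -0.03 and 55.0% to 56.5% below 0. In KO the class under 10 kb had instead the largest share below 0 (62.5%, median -0.04), and the other classes had 53.4% to 56.9%. The part of gene length here was not tested. All 8 signalling and ubiquitin genes were below 0 in WT (median -0.08). Among the chromatin genes 10 of 14 were below 0 in WT and 11 of 14 in KO, and none was called. The wider chromatin list showed 31 of 34 below 0 in WT (median -0.11), with Kmt5b, a histone methyltransferase gene, the 1 called (-0.26, adjusted p = 0.0138). In the wider synapse list 4 were higher and 4 lower in frontal WT tissue (26.7%, against 6.03% of all genes): Dlgap1 (0.55), Dlg1 (-0.43), Cntnap4 (-0.53) and Nlgn1 (0.32) had the smallest adjusted p, of 0.000852, 0.00569, 0.00585 and 0.0251. Radial glia markers were lower in frontal WT tissue for 3 of 8 and maturation markers for 3 of 8, and their part was not tested.

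**Figure D3:**
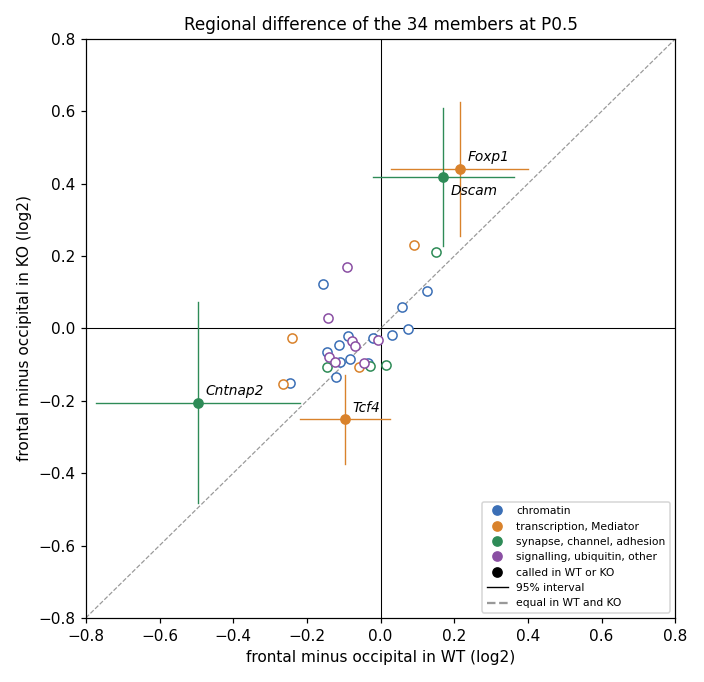
Frontal minus occipital log2 difference of the 34 genes at P0.5 in WT (horizontal axis) and KO (vertical axis), coloured by role, with 95% intervals for the 4 genes called in either genotype (filled) and a dashed line of equal differences. Cntnap2 was called in WT, and Foxp1, Dscam and Tcf4 in KO, and all 4 have the same sign in both genotypes.

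At E14.5 none of the 34 members was called, as none of all 18194 genes was (0%), while 11 members and 1048 genes had an unadjusted p under 0.05 (limma). The members nevertheless lay to one side. Their differences were below 0 in 29 of 34 (85.3%), with a median of -0.49, beside 34.5% below 0 and a median of 0.06 for all genes. The replicate values of 12 of 34 (35.3%) did not overlap between the genotypes, against 11.2% of all genes. Of these members Katnal2 lay higher in KO and the others lower. The comparison was coarse, with a median half-width of the 95% interval of 0.58 and 2 of 34 intervals within 0.5 log2 units of 0.

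By role, 13 of 14 chromatin genes (median -0.47), 5 of 6 transcription factors and Mediator subunits (median -0.75), 5 of 6 synapse genes (median -0.35) and 6 of 8 signalling genes (median -0.24) were below 0. In the wider lists 28 of 34 chromatin genes (median -0.20) and 20 of 30 synapse genes (median -0.15) were below 0. Chd8 read 7.89, 8.31 and 8.59 in KO and 8.75, 8.80 and 8.80 in WT, a difference of -0.52 (SE 0.21, adjusted p = 0.858) without overlap. Cul3 read 5.14, 5.73 and 5.55 in KO and 6.44, 6.46 and 5.96 in WT, a difference of -0.81 (SE 0.21, adjusted p = 0.85) without overlap. Its mean signal of 5.88 was a low one for a member, at percentile 47.5 of all genes. Ank2 read 6.01, 6.69 and 7.20 in KO and 7.93, 7.21 and 7.66 in WT, a difference of -0.97 (SE 0.33, adjusted p = 0.858), with the highest KO just under the lowest WT array.

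With all arrays Med13 had the widest difference, -1.46 (SE 0.57, adjusted p = 0.858), which was -0.71 without KO replicate 1, where Myt1l was widest at -0.83. It read 4.31, 6.71 and 6.36 in KO and 7.51, 7.10 and 7.15 in WT, and the lowest value came from KO replicate 1. Ank3 read 7.77, 7.82 and 8.59 in KO and 9.29, 8.35 and 9.08 in WT (-0.85, adjusted p = 0.858), and Tcf4 9.28, 10.11 and 10.29 against 11.08, 10.55 and 10.73 (-0.89, adjusted p = 0.85). Tcf4 did not overlap and Ank3 did. Ctnnb1, Dscam, Cntnap2 and Foxp1, the other genes called at P0.5, were at 0.02, -0.17, -0.19 and -0.47 with overlapping arrays. Above 0 were Pogz (0.03), Deaf1 (0.17), Shank3 (0.31), Ctnnb1 and Katnal2 (0.26).

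Most members have more than 1 probe set on the E14.5 array (130 for the 34 members), and these did not always read alike. The shift rests on 1 probe set a gene. Tcf4, Med13 and Cul3 are given as examples, and the directions of the other genes' further probe sets are not given here. The 5 brighter probe sets of Tcf4 ran from -1.37 to -0.86, and its dimmest was at 0.04. For Med13 the probe set used had a mean signal of 6.52, and the other 4, with means from 3.80 to 4.35, ran from -0.16 to 0.002. For Cul3 all 5 were below 0, from -0.81 to -0.19.

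**Figure D4:**
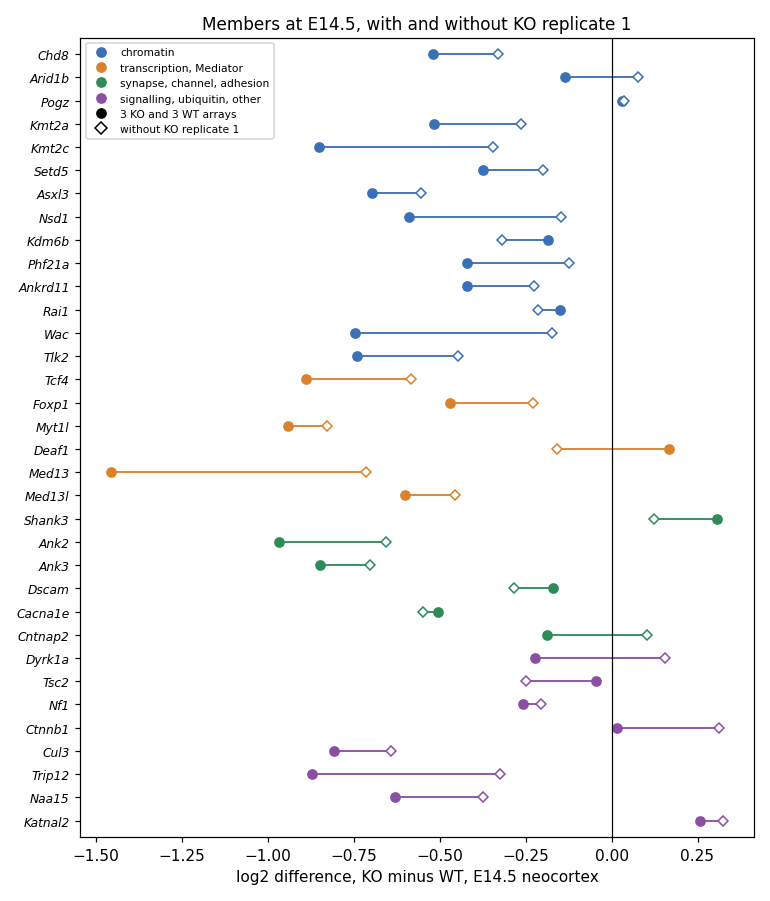
Log2 difference between KO and WT in E14.5 neocortex for the 34 genes, with all 6 arrays (filled circles) and without KO replicate 1 (open diamonds), coloured by role; the line joins the 2 values of a gene. With all arrays 29 of 34 lie below 0, and without that array 27 of 34, most of them nearer to 0.

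The size of the E14.5 shift rested in part on 1 array. The median of the 34 members relative to the WT mean was -0.93 in KO replicate 1, -0.33 in KO replicate 2 and -0.21 in KO replicate 3, beside 0.12, -0.10 and 0.02 in the WT arrays. Tbr1 read 8.69, 7.23 and 7.57 in the same KO arrays, so the array with the largest member shift had the highest KO signal of Tbr1. Without KO replicate 1 the Tbr1 difference was -1.72, beside -1.29 with all arrays. How the member shift relates to the level of Tbr1 was not tested. Members below the WT mean numbered 27, 29 and 27 in the KO arrays and 10, 25 and 16 in the WT arrays. By count WT replicate 2 was thus nearly as one-sided as the KO arrays, so the signs of the members are not independent of each other. Without KO replicate 1, the array that stood apart, 27 of 34 members were below 0, with a median of -0.26 beside 0.01 for all genes, and 0 members were called. By role 12 of 14 chromatin genes (median -0.22), 6 of 6 transcription factors and Mediator subunits (-0.52), 4 of 6 synapse genes (-0.42) and 5 of 8 signalling genes (-0.23) were then below 0. Leaving out any other array left 29 of 34 below 0, with medians from -0.60 to -0.42. Pogz, Shank3, Ctnnb1 and Katnal2 stayed above 0 without KO replicate 1, joined by Arid1b (0.08), Cntnap2 (0.10) and Dyrk1a (0.16), while Deaf1 went to -0.16.

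Other values are given beside this shift. The members are long genes: their annotated spans had a median of 120.8 kb against 20.2 kb for all genes, and all 34 were longer than that median. Over all genes the median E14.5 difference went from 0.08 for spans under 10 kb to -0.02 in the class of longest spans, where the 12 members had a median of -0.55. Among genes with a mean signal of at least 6.07, which 30 of the members reach, it went from 0.11 to -0.08 (60.6% below 0). The mean of 5 meninges markers was 8.79, 9.31 and 7.47 in KO and 6.95, 6.97 and 7.10 in WT, and that of 5 choroid plexus markers 7.34, 7.19 and 7.31 against 5.63, 6.35 and 6.66. The mean of the cortical neuron markers was 9.76, 9.09 and 9.63 in KO against 10.43, 9.79 and 9.93 in WT. The 5 meninges markers differed by 0.77 to 2.77, with Col1a1 the largest, and 4 of 5 choroid plexus markers were above 0, Kl lying at -0.02. The difference between 3′ and 5′ probe sets of beta-actin was 0.53, 0.52 and 0.45 in KO and 0.41, 0.49 and 0.47 in WT, and that of Gapdh was -0.04, -0.08 and -0.14 in KO and -0.10, -0.10 and -0.09 in WT, with overlap in both. The part of gene length, of these tissues and of RNA quality in the shift was not tested.

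Levels at the 2 stages come from different array types and were not compared. The differences stand side by side: Med13 was at -1.46 (not called, and -0.71 without KO replicate 1) at E14.5 and at -0.27 over the regions at P0.5, Ank3 at -0.85 (not called) and -0.16, Ctnnb1 at 0.02 (not called) and -0.19, and Dscam at -0.17 (not called) and 0.21.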

How the data were processed

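The authors deposited log2 signals per probe set, in 1 table for each stage. The submitters' processing notes name Affymetrix Expression Console 1.1 and RMA, without giving which tool did which step. The values were not normalised again. The labels name a single array type, yet probe set names differ between the stages, which were fitted apart. Probe sets with other than 1 gene symbol were dropped, and the probe set with the highest mean stood for a gene, which left 18194 genes in the E14.5 table and 19938 in the other. Gene names came from the platform annotation given with the data.

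The model was limma's, version 3.58.1 under R 4.3.3 (lmFit, eBayes with an intensity trend, two-sided), with Benjamini-Hochberg adjustment over all genes. A single fit of 24 arrays in 6 groups gave the P0.5 regions, and the mean over regions was fitted on 4 against 4 averaged values. No depth applies to arrays, and their number limits the precision. The fit was also run on simulated data with known changes and independent noise. The simulated data held no array that stood apart, no link between same-numbered arrays and no Y-linked difference. That run therefore says nothing about the part of these in the calls.

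The members, the lists, the rule for named genes and the tests were chosen with earlier results of these data known, and the promoter windows, motifs and gene spans were chosen after the results were seen. Arrays are given in full for Tbr1, every member called in any comparison and some examples (Chd8, Shank3, Cul3, Ank2, Tlk2), and the other members by their largest differences. Genes of the wider lists were named by adjusted p.

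At E14.5 the residuals of same-numbered KO and WT arrays correlated at 0.125, 0.285 and 0.445, each over 0.1, which was taken as pairing. With the number as a block 0 of 34 members were called there too. The E14.5 values in the Results come from the fit without that block. With the block the SE of Tbr1 went from 0.37 to 0.23 (adjusted p = 0.568, limma). That of Ank3 went from 0.32 to 0.24 and that of Foxp1 from 0.30 to 0.31. In every pair of groups checked at P0.5 at least 1 of 4 same-number correlations lay under 0.1 (lowest -0.471). The numbers were therefore not taken as pairing those arrays. The Y-linked level ran from 5.09 to 5.99 in frontal KO arrays but averaged 8.35 in occipital KO arrays, with a highest of 9.32. In WT it was 5.76 in the lowest parietal array and at least 8.99 in every frontal array. Some same-numbered arrays of each genotype therefore cannot come from 1 animal, and for the others this is not known. The mean over regions joins arrays by number all the same. The alternatives were averaging all probe sets of a gene, no dim genes, subtracted medians, no trend, array weights, the Y-linked covariate, the replicate block, only the arrays compared, a 1.5-fold minimum and leaving out each replicate. Promoter sequences are from RefSeq (GRCm38.p6), where 27 of the 34 members matched.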

Additional observations from a re-analysis of the deposited data

Results flagged for a closer look

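In P0.5 parietal WT tissue 1 of the 4 Foxp1 arrays lay apart from the others. Replicate 1 read 10.13, and the other 3 lay between 10.01 and 10.02, so the gap to the nearest took 0.915 of the range of the group, above Dixon's 95% critical value for 4 samples. This was 1 of 48 groups checked (Tbr1 and the 7 called members in 6 groups of arrays), and chance flags about 1 in 20 such groups.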

How the results depend on the processing

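The 12 member differences that passed the test kept their sign in all 188 refits, and stayed past the threshold in 129 of them. Counts of members called were 3 in frontal, 1 in parietal and 0 in occipital tissue, 4 over the regions, 1 for frontal against occipital WT and 3 for KO tissue. A 1.5-fold minimum gave 0 in all of these, and the Y-linked covariate 0 in all but frontal against occipital WT (1). In frontal tissue, fitting only the arrays compared gave 1. In parietal tissue subtracted medians and no trend gave 0 each, array weights 4 and the replicate block 2, where Med13 joined. In occipital tissue array weights and the replicate block gave 1 each, Med13 under the block (-0.26, adjusted p = 0.0445). In WT frontal against occipital, leaving out the dimmest 30% of genes gave 2, array weights 3 and only the arrays compared 0. Over the regions the block gave 3, without Ank3 (adjusted p = 0.0698), and it lost no other member call. Leaving out 1 replicate gave 1 to 3 members in frontal, 0 to 1 in parietal, 0 to 1 in occipital tissue and 1 to 5 over the regions, and 0 to 2 in WT and 2 to 3 in KO for frontal against occipital. At E14.5 and for the difference between genotypes, 0 were called under every alternative. The cause of these changes was not tested. The background moves as well: 1499 genes were called in frontal tissue, 247 with the Y-linked covariate, 687 with only the arrays compared, 2606 with array weights and 749 to 2454 without 1 replicate, and array weights gave 1241 in place of 361 in parietal tissue. Over the regions the covariate gave 71 in place of 1488. The E14.5 comparison has 3 arrays a group, which limits its precision.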
